A study of Mus musculus with 10 samples.

Results

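Mitochondrial ribosomal protein genes were examined in livers of refed, fasted and fasted NAMPT-deficient mice. The genes were chosen by name, as every row of the deposited count tables whose Ensembl gene has a protein-coding symbol beginning with Mrpl or Mrps and a digit. This gave 77 of the 41388 genes in the tables, 48 of the large subunit and 29 of the small subunit. The 5 pseudogenes with such names were left out. The gene Mrpl33 was not analysed here, because its identifier in the annotation matched no row. Liver RNA was measured by RNA-seq of polyadenylated RNA in 10 mice, 1 library per mouse. The WT mice were NAMPT fl/fl littermates without Cre, whose Nampt gene carries LoxP sites but is intact. The NAMPT LKO mice carried the same LoxP alleles and Albumin-cre, a transgene that drives deletion of the floxed gene in hepatocytes. All mice were of the strain given as C57B/6J and were about 12 weeks old. The 2 WT Refed mice were fasted for 22 h and refed for 2 h according to the sample labels, and a 24 h fast without refeeding is given for the 3 WT Fasting mice and the 5 NAMPT LKO mice. The study's text describes the fed controls as random-fed and gives a shorter fast, so the time and feeding state are known only as the labels give them. No refed NAMPT LKO livers were analysed here.

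Mitochondrial ribosomes translate the few messenger RNAs of the mitochondrial genome, all of which encode subunits of the respiratory chain and ATP synthase. Their ribosomal RNAs come from the mitochondrial genome, while every protein of the particle is encoded in the nucleus, made in the cytosol and imported. The small subunit binds the messenger RNA and decodes it, and the large subunit forms the peptide bond and delivers the chain to the inner membrane. Some members descend from bacterial ribosomal proteins and others are found only in mitochondria. The liver is rich in mitochondria, and fasting shifts hepatocytes from lipid synthesis to fat oxidation and ketone production. NAMPT makes the NAD precursor nicotinamide mononucleotide.

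The promoters of these genes are shown first, since their sequences bear on features that the members share. Promoter windows from RefSeq (build GRCm38.p6, 250 bases before to 50 bases after the start) were given for 68 of the 77 members. Motifs known from genes of mitochondrial proteins were searched on both strands, with no overlap among their letters required or excluded. The motif of the activator NRF1, GCGCA followed by any 1 base and GCGC, was in 13 of the 68 windows (19.1%), against 10.5% of the 9638 windows of protein-coding genes tested here and 4.78% of all 27025 windows. The motif CCGGAAG, bound by ETS factors such as GABPA, was in 24 windows (35.3%), against 18.2% and 9.12%. The motif of YY1, AANATGGC, was in 21 windows (30.9%), against 8.83% and 6.23%, and in 16 members a match lay after the start. At least 1 of these motifs was in 45 of the 68 windows (66.2%), against 32.4% of the windows of tested genes. For comparison, the E-box CACGTG was in 7.35% of the members' windows and 10.2% of those of tested genes, the letters TATAAA in 5.88% and 7.47%, and CCAAT in 38.2% and 38.5%. Such matches are descriptions of the letters and not binding sites. A further shared feature was position. Of the 76 members above the expression filter, 16 (21.1%) had another tested protein-coding gene that starts on the opposite strand in the 1000 bases before them. The share was 9.49% of the 12047 protein-coding genes tested, with short overlaps of a pair allowed. Pairs whose starts overlap further, such as Mrpl46 and Mrps11, were not counted. The 4 stretches below lie just before the start of a member and stop at the first exon of any gene. They are written 5′ to 3′ on the member's strand with motif letters in capitals. Motif distances are counted from the RefSeq start. Between the end of the stretch and that start, 24 bases were left out for Mrpl12 and 3 for Mrpl22. Mrps27, Mrpl22 and Mrps2 are shown because their mRNA was lower in fasted livers, and Mrpl12 because its mRNA was among the most abundant and did not pass the test in any comparison.
Mrps27, chr13:99344679-99344785, plus strand, the whole interval between its start and that of Ptcd2, with an ETS motif on the minus strand that begins 48 bases before the start: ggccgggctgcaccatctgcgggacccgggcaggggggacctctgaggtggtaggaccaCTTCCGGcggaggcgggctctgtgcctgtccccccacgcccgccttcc
Mrpl22, chr11:58171414-58171660, plus strand, with an ETS motif that begins 53 bases before the start: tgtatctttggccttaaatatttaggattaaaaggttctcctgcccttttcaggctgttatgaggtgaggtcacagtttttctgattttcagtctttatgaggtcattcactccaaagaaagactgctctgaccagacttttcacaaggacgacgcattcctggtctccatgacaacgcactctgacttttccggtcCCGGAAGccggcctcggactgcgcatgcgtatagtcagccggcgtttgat
Mrpl12, chr11:120484387-120484612, plus strand, with an NRF1 motif on the minus strand that begins 81 bases before the start: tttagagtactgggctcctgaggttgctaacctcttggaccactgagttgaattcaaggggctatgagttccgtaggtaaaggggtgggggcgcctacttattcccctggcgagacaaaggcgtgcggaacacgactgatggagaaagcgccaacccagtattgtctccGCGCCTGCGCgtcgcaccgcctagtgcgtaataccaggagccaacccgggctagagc
Mrps2, chr2:28467816-28468065, plus strand, in which none of the 3 motifs occurred: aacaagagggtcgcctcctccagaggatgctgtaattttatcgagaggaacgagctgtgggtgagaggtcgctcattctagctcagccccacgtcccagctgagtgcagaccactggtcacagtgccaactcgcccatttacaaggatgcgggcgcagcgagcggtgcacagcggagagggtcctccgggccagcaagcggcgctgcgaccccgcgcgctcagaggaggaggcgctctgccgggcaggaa

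Total counts ranged from 30603080 to 43434139 per library, and the 76 members tested had from 133 to 3700 counts in a library. Levels are given as CPM, the count scaled to the library total, after TMM normalization, which corrects totals for a few very abundant genes. The expression filter, RPKM, summed cell type markers, pseudogenes and the limit for Mrpl53 use scaling to the library total alone. Genes above 1 CPM in at least 1 library, 13444 in all, were fitted together over the 10 libraries with edgeR's quasi-likelihood test, and a gene was called where p, adjusted after Benjamini and Hochberg, was at or under 0.05. The p-values quoted here all come from that fit. All 7 hepatocyte markers were above 1 CPM, and no marker of Kupffer cells, endothelium, stellate cells, cholangiocytes, lymphocytes, blood, pancreas, fat or muscle was called between WT Fasting and WT Refed livers or between NAMPT LKO and WT Fasting livers. Nampt lay between 11.8 and 15.3 CPM in the NAMPT LKO livers, below the 63.0, 73.4 and 140.9 CPM of the WT Fasting livers. The summed level of the 5 Kupffer cell markers was 124 to 144 CPM in WT Refed, 151 to 270 CPM in WT Fasting and 117 to 227 CPM in NAMPT LKO livers. Its part in the results was not tested. The library of NAMPT LKO mouse 5 stood apart, with 21.1% of its counts on the mitochondrial genome against 7.42% to 12.9% in the other 9, and WT Fasting mouse 3 had the lowest share. Results that rest on these libraries are given with and without them.

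Only 1 member fell below the filter. Mrpl53, a protein of the large subunit, had 0 counts in every library, which allows at most 0.0691 to 0.098 CPM of reads assigned to it, depending on the library (3 counts, counting error only). Of its 735 exonic bases, 640 are also exon of Gm42688 on the same strand, and that gene was tested. Only reads that fall on a single gene were counted, according to the study's methods. The counts therefore set no limit on Mrpl53 mRNA over the shared exons. In all, 26 of the 77 members share exonic bases with another annotated gene, and 3 of them share at least 50% of their exonic bases. These 3 are Mrpl53, Mrps34 and Mrps25. Reads of same-strand pairs (Mrpl53 and Gm42688, Mrps24 and Urgcp, Mrps6 and Slc5a3, Mrps34 and Nme3) cannot be told apart over the shared bases. For pairs on opposite strands this depends on whether counting used strand, which is not given in the sources used here.

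Per exonic length, the members were well above the typical gene. Their median was 13.8 RPKM (CPM without TMM per kilobase of exon, mean of the 10 libraries), against 3.78 RPKM for the 12047 protein-coding genes tested. The large subunit had a median of 16.7 RPKM over 47 genes and the small subunit 8.94 RPKM over 29 genes. Levels within the ribosome spanned 73.3-fold, although the proteins are present in equal numbers in the particle with few exceptions. RPKM divides by all annotated exonic bases, which number 412 for Mrpl52, the highest member, and 6576 for Mrps25, the lowest. The part of annotated length in this span was not tested. The most abundant were Mrpl52, a protein found only in mitochondria, at 116 RPKM, Mrpl34, the relative of a small bacterial protein, at 67.1 RPKM, Mrpl42 at 60.2 RPKM and Mrpl12 at 50.6 RPKM. Mrpl12 belongs to the stalk that recruits translation factors, and it is also known to bind the mitochondrial RNA polymerase. In the small subunit Mrps24 stood highest, at 40.9 RPKM. At the other end were Mrps25 at 1.58 RPKM, Mrpl19 at 2.28 RPKM, Mrpl3 at 2.48 RPKM and Mrpl48 at 2.89 RPKM. The exons of Mrps25 include 3533 bases that lie opposite Nr2c2, and those of Mrpl19 include 1962 bases opposite Gcfc2, which are part of the length that RPKM divides by.

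**Figure D1:**
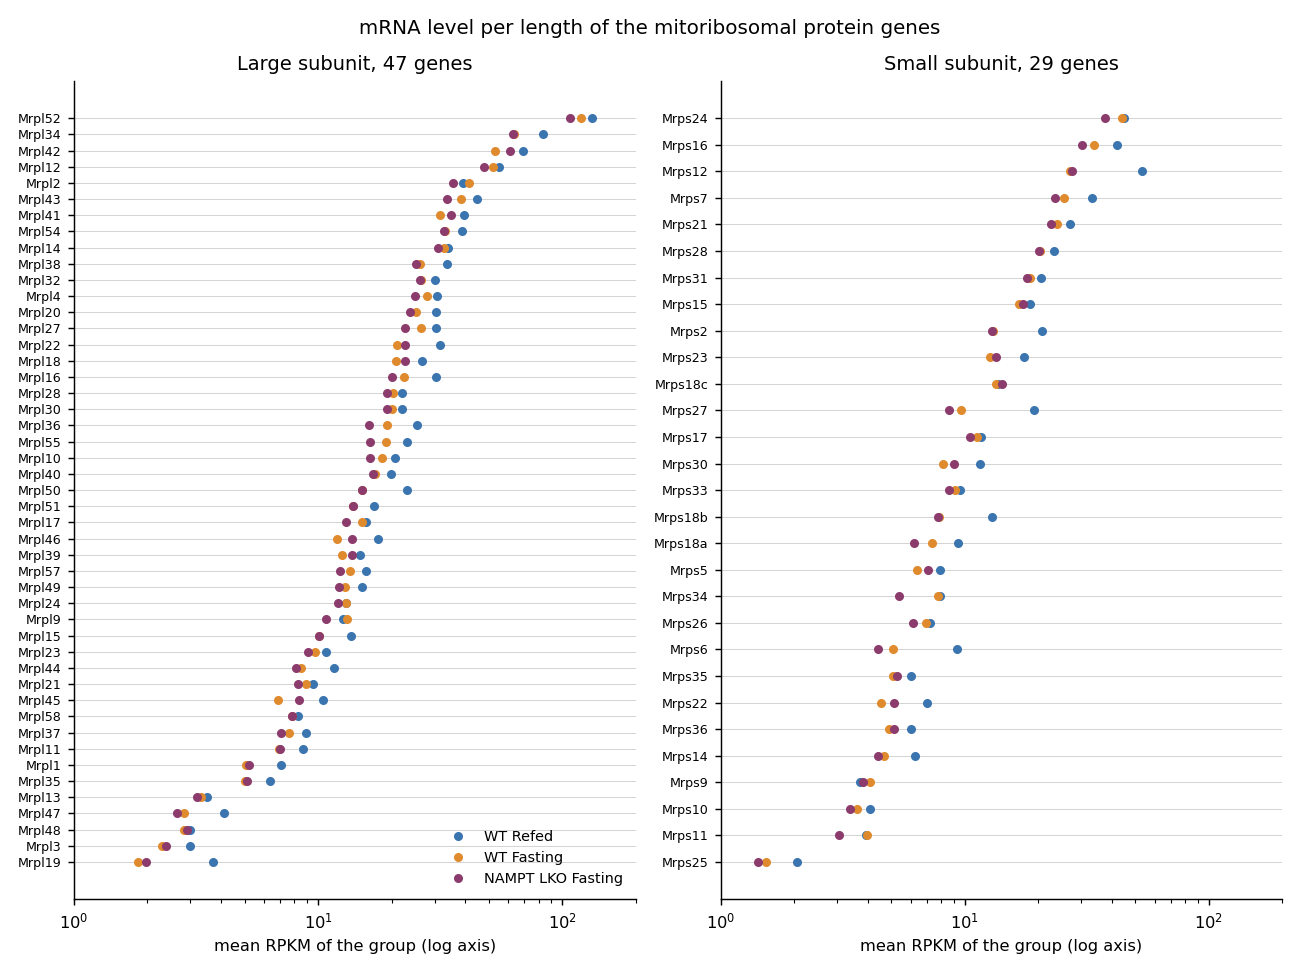
Mean RPKM of each group for the 47 large-subunit and 29 small-subunit genes above the filter, on a horizontal log axis. RPKM is CPM without TMM normalization per kilobase of exon, with a row per gene ordered by the mean of all libraries. Blue points (WT Refed) lie to the right of the others in most rows, and levels run from 1.58 RPKM for Mrps25 to 116 RPKM for Mrpl52.

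The first comparison set WT livers after a continued fast against WT livers refed for 2 h after a fast. With no unfasted mice among the groups as labelled, it does not tell a change during the fast from a change on refeeding. Mitoribosomal mRNAs were lower in WT Fasting than in WT Refed livers, by small amounts. Of 76 members 65 had a log2 fold change below 0 (85.5%), against 46.4% of all genes tested, and the median was -0.19 against 0.037 over all genes. The test called 7 members, all lower, beside 4.36% of all genes tested that were called lower, 2.68% called higher and 7.04% in either direction. They were 5 of 29 small-subunit genes (Mrps27, Mrps2, Mrps18b, Mrps6 and Mrps12) and 2 of 47 large-subunit genes (Mrpl19 and Mrpl22), and no member was called higher. At an unadjusted p under 0.05 there were 18 members, all lower, beside 11.9% of all genes. All 3 WT Fasting livers lay below both WT Refed livers for 44 members, beside 25.1% of all genes, and above both for 3 members (Mrpl2, Mrpl9 and Mrpl24), beside 24.5% (49.7% either way). In these bulk samples fewer cells of a type and less RNA per cell cannot be told apart.

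Mrps27 carries pentatricopeptide repeats, a fold that binds RNA, and lies on chromosome 13 from 99344786 to 99415561. It measured 33.9 and 35.2 CPM in the WT Refed livers. The 3 WT Fasting livers gave 17.0, 18.9 and 17.9 CPM, and the 5 NAMPT LKO livers 15.7, 18.6, 16.6, 14.6 and 16.4 CPM. All 8 fasted livers lay below both refed ones, with no overlap, and the 2 fasted groups overlapped. The log2 fold change was -0.94 (SE 0.13, adjusted p = 0.00222) in WT Fasting vs. WT Refed livers. Its call held under all 11 alternative settings and without each of the 10 libraries in turn. Its neighbor Ptcd2, whose start is 108 bases away on the opposite strand and which also encodes a mitochondrial protein with pentatricopeptide repeats, had a log2 fold change of -0.85 (adjusted p = 0.00184). The exons of Mrps27 share 417 bases with 6430562O15Rik, which did not pass the filter.

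Mrps12 belongs to the decoding center of the small subunit, and its gene lies on chromosome 7 from 28739641 to 28741820. It measured 51.7 and 55.2 CPM in WT Refed livers, and 22.3, 28.4 and 33.8 CPM in WT Fasting livers. The NAMPT LKO livers gave 32.8, 27.5, 29.4, 37.4 and 18.5 CPM, of which the lowest was mouse 5. Fasted livers again lay below the refed ones without overlap, but spread more widely than for Mrps27. Its log2 fold change was -0.92 (SE 0.25, adjusted p = 0.0493), close to the threshold. The neighbor Sars2, the mitochondrial seryl-tRNA synthetase, starts 148 bases away on the opposite strand and had a log2 fold change of -0.01 (adjusted p = 0.985).

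Mrps2, which descends from a bacterial ribosomal protein, lies on chromosome 2 from 28468066 to 28471178. Its levels were 58.5 and 59.0 CPM in WT Refed livers and 39.1, 42.2 and 34.4 CPM in WT Fasting livers, which is -0.61 as a log2 fold change (SE 0.11, adjusted p = 0.011). The 5 NAMPT LKO livers were between 36.9 and 41.8 CPM, within the range of the WT Fasting livers. Mrps18b is one of several relatives of a single bacterial protein and lies on chromosome 17 from 35910379 to 35916389. It measured 24.6 and 27.7 CPM in WT Refed livers and 16.9, 17.9 and 15.1 CPM in WT Fasting livers (log2 fold change -0.65, SE 0.15, adjusted p = 0.0297). Mrps6, on chromosome 16 from 92058270 to 92112227, was the lowest of the 7, at 9.57 and 9.36 CPM in WT Refed livers. WT Fasting livers gave 5.41, 5.27 and 5.51 CPM for Mrps6, a log2 fold change of -0.81 (SE 0.20, adjusted p = 0.0352), and NAMPT LKO livers 4.77, 4.68, 4.89, 3.61 and 6.21 CPM. For each of these 3 genes the fasted livers of both genotypes lay below the refed livers. Mrps18b shares 638 exonic bases with Gm16279, which did not pass the filter, and Mrps6 shares 159 with Slc5a3, whose log2 fold change was -0.25 (adjusted p = 0.751).

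In the large subunit, Mrpl19 had the lowest log2 fold change. It lies on chromosome 6 from 81957851 to 81965958 and measured 18.4 and 20.7 CPM in WT Refed livers, 11.2, 9.73 and 9.43 CPM in WT Fasting livers, and between 10.2 and 12.1 CPM in NAMPT LKO livers. No fasted liver reached a refed one, and the log2 fold change was -0.95 (SE 0.14, adjusted p = 0.00341). Gcfc2, which lies opposite its exons, was at 2.28 CPM in refed and 1.96 CPM in WT Fasting livers on average (log2 fold change -0.22, adjusted p = 0.751). Mrpl22 is the relative of a bacterial protein that lines the exit tunnel of the nascent chain, and lies on chromosome 11 from 58171661 to 58179565. Its levels were 29.9 and 30.5 CPM in WT Refed livers and 21.8, 20.3 and 20.3 CPM in WT Fasting livers (log2 fold change -0.54, SE 0.13, adjusted p = 0.0271). The NAMPT LKO livers spread from 20.3 to 25.7 CPM for Mrpl22, still below both refed livers. Of the 7 genes called, Mrps2, Mrpl22 and Mrps12 share no exonic base with another gene. Over the 51 such members tested the median log2 fold change was -0.22.

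**Figure D2:**
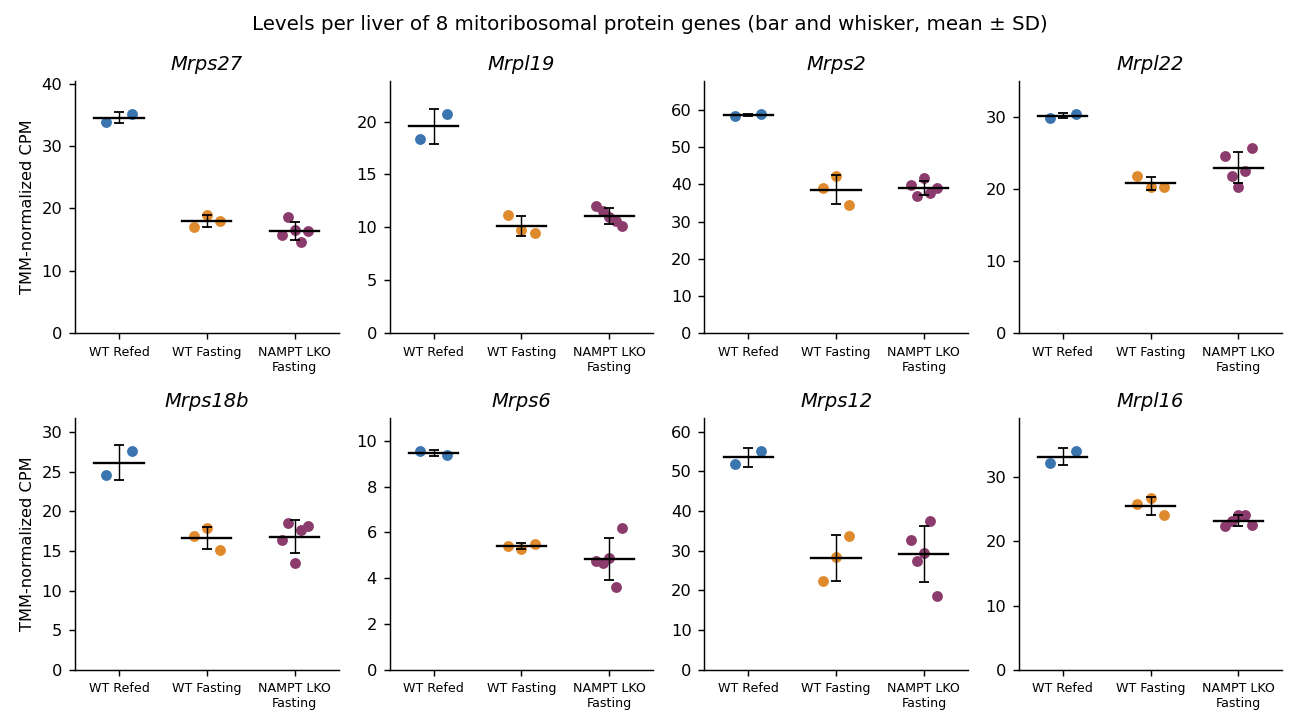
TMM-normalized CPM (vertical axes, from 0) of the 7 genes called in WT Fasting vs. WT Refed livers and of Mrpl16, one point per liver, with the mean as a bar and the SD as whiskers (n = 2, 3 and 5). Both WT Refed points lie above all 8 fasted points in each panel, and WT Fasting and NAMPT LKO points overlap in 8 of 8 panels.

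The number of calls rested on few refed livers, and all calls were lower in every setting tried. Without 1 of the WT Refed livers it was 2 (mouse 1) or 1 (mouse 2), without 1 of the WT Fasting livers 4 (mouse 1), 3 (mouse 2) or 4 (mouse 3), and without NAMPT LKO mouse 5, which enters the fit through the shared estimate of spread, 22. Over all genes the number called moved likewise, from 946 to 194, 107, 538, 466, 786 and 2231 in the same fits. Across the 10 fits that each left out 1 library, Mrps27 was called in 10, Mrpl19 in 9, Mrps2 in 8, Mrpl22 and Mrps18b in 5, and Mrps6 and Mrps12 in 3. The median was below 0 under each scaling, at -0.19 with TMM, -0.19 with RLE factors and -0.25 with library size alone, where the median of all genes was -0.026.

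Some members had values close to 0. Mrpl12 was 80.6 and 83.3 CPM in WT Refed livers and 81.4, 83.8 and 76.8 CPM in WT Fasting livers (log2 fold change -0.02), with a 95% interval from -0.27 to 0.23. Mrpl17 was 63.4 CPM in both refed livers and 67.6, 60.5 and 62.1 CPM in WT Fasting livers (0.00, 95% interval -0.25 to 0.25). The largest values above 0 among the members were those of Mrps9 (0.19, adjusted p = 0.541), Mrpl2 (0.15, adjusted p = 0.475) and Mrpl9 (0.12, adjusted p = 0.706), and none was called. Without WT Fasting mouse 1 the value of Mrps9 was 0.059, and without WT Refed mouse 2 that of Mrpl9 was 0.021. Mrpl2 is the relative of a bacterial protein at the peptidyl transferase center. Its WT Fasting livers (46.3, 50.1 and 50.8 CPM) all lay above the refed ones (45.4 and 43.3 CPM).

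Of members with a known link to human disease of mitochondrial translation, 5 were listed for this and did not pass the test. The list was not complete and does not describe disease-linked members as a set. Mrps22 had a log2 fold change of -0.57 (adjusted p = 0.0939), Mrpl44 of -0.39 (adjusted p = 0.172), Mrpl3 of -0.31 (adjusted p = 0.193), Mrps16 of -0.26 (adjusted p = 0.383) and Mrps34 of 0.03 (adjusted p = 0.965). The 2 refed livers had 28.3 and 26.1 CPM of Mrps22, against 20.3, 18.4 and 16.2 CPM in the WT Fasting livers, without overlap. Mrpl41, a protein found only in mitochondria, had a log2 fold change of -0.27 (adjusted p = 0.366). Mrps36, which is now known as an adaptor of the 2-oxoglutarate dehydrogenase complex and not as a ribosomal protein, had one of -0.24 (adjusted p = 0.462). The 5 mitoribosomal proteins whose symbols do not follow the naming rule (Dap3, Ptcd3, Chchd1, Aurkaip1 and Gadd45gip1) gave 0 calls and a median of -0.13, with Ptcd3 lowest at -0.50 (adjusted p = 0.135).

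**Figure D3:**
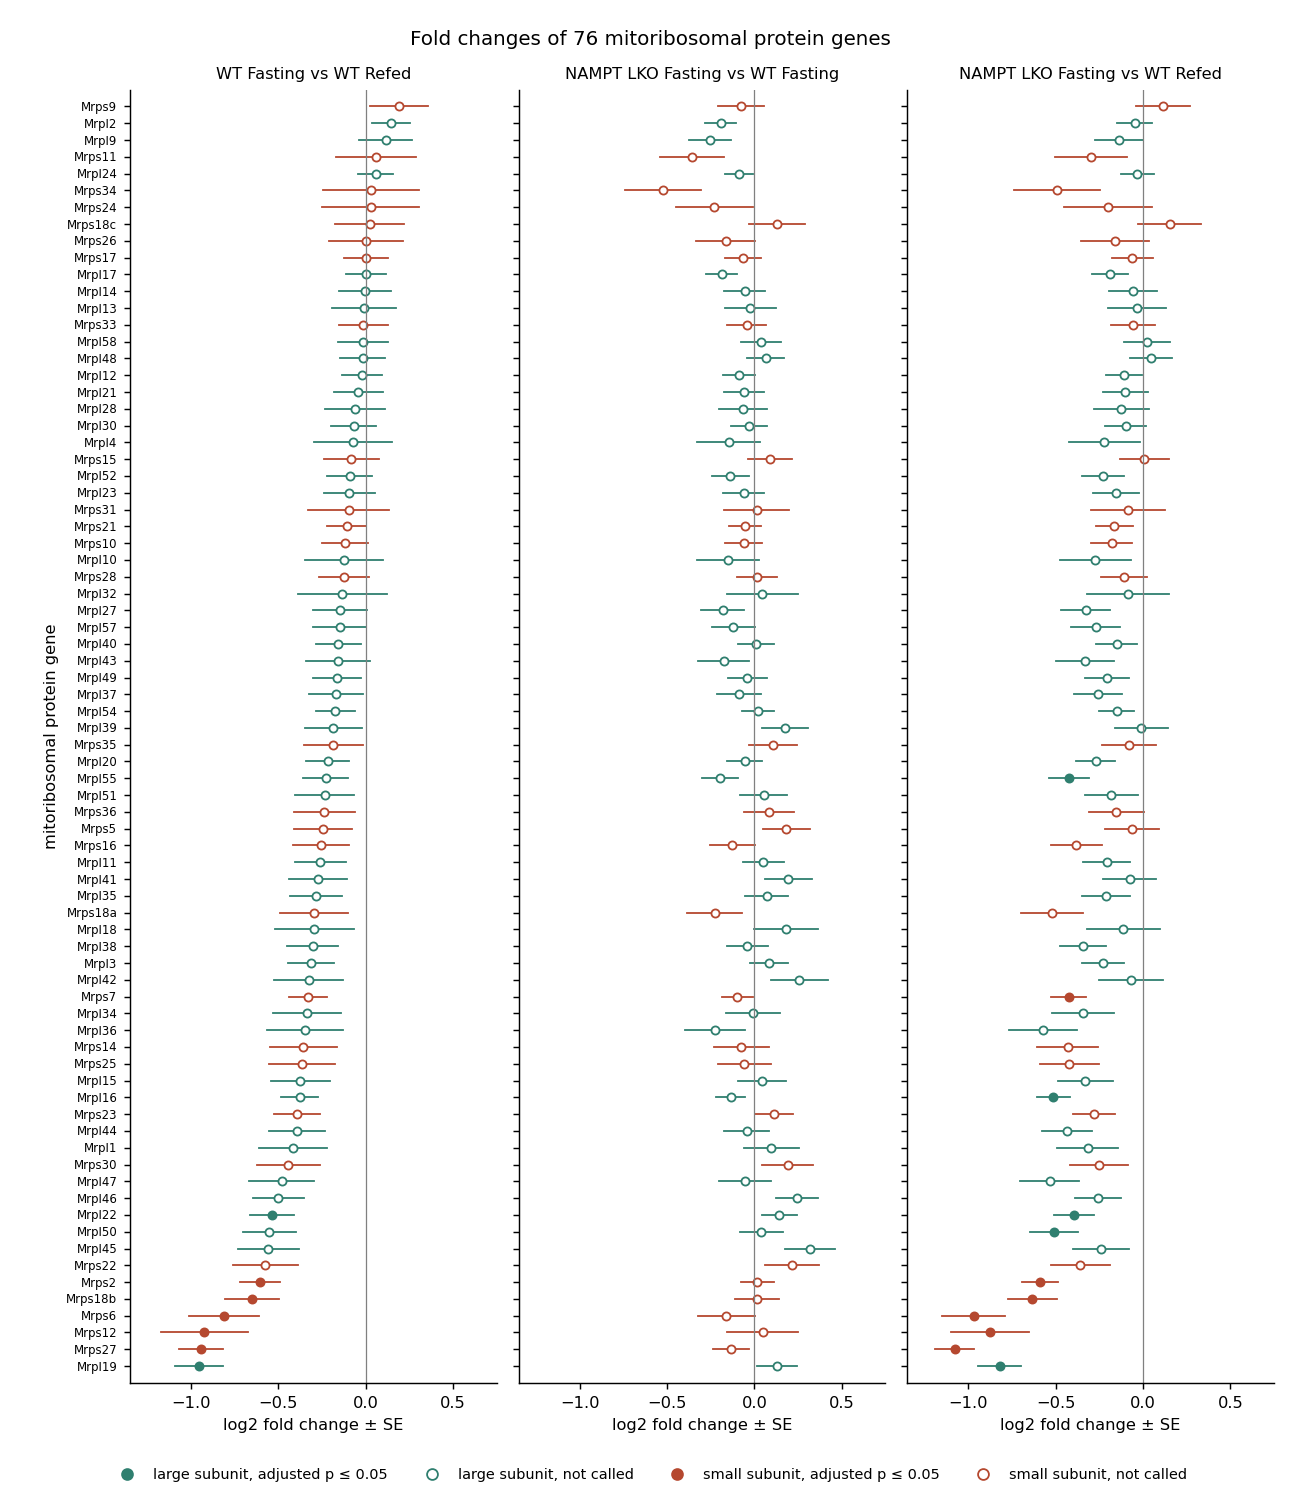
Log2 fold changes with SE (horizontal axes) of the 76 members in the 3 comparisons, one row per gene ordered by WT Fasting vs. WT Refed, green for the large and red for the small subunit, filled where the adjusted p was at or under 0.05. Points lie mostly left of 0 in both comparisons with WT Refed livers, with 7 and 11 filled, and on both sides of 0 in NAMPT LKO vs. WT Fasting, with 0 filled.

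Summed over the 76 members, mitoribosomal mRNA was 2486 and 2501 CPM in the WT Refed livers, 2174, 2206 and 2039 CPM in the WT Fasting livers, and between 1998 and 2156 CPM in the NAMPT LKO livers. The large-subunit sum was 1658 ± 4.33 CPM in WT Refed (SD, n = 2), 1449 ± 60.4 CPM in WT Fasting (SD, n = 3) and 1422 ± 44.7 CPM in NAMPT LKO livers (SD, n = 5). The small-subunit sum was 835 ± 6.11 CPM, 691 ± 28.3 CPM and 673 ± 18.6 CPM in the same groups. All 8 fasted livers lay below both refed livers for either sum, and the fasted groups overlapped. The ratio of large to small was 1.98 and 1.99 in the refed livers, from 2.09 to 2.11 in WT Fasting livers and from 2.07 to 2.19 in NAMPT LKO livers, where mouse 5 had the highest value.

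**Figure D4:**
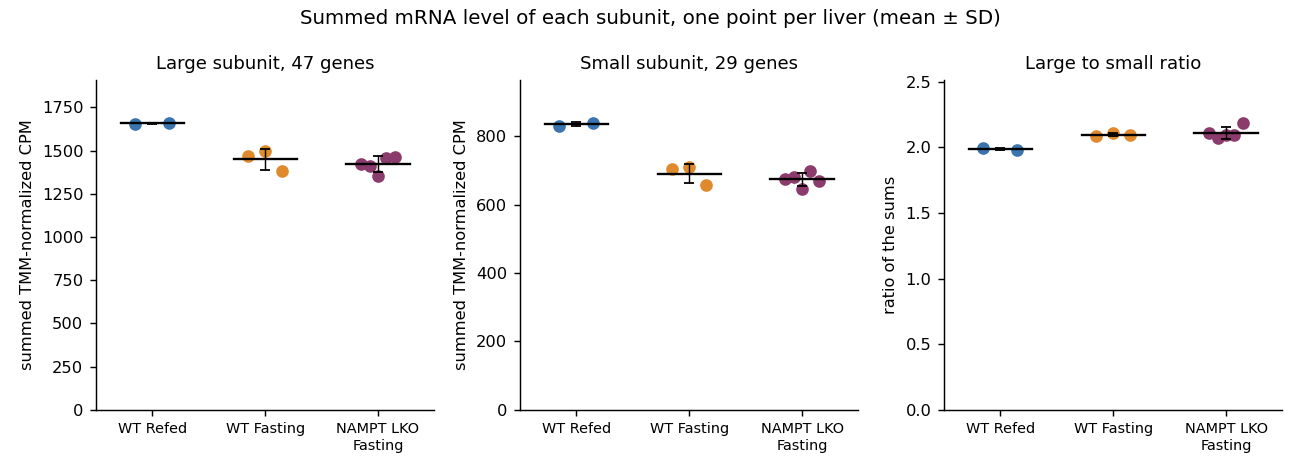
Summed TMM-normalized CPM (vertical axes, from 0) of the 47 large-subunit genes and the 29 small-subunit genes, and their ratio, one point per liver with mean and SD. Both sums are highest in the 2 WT Refed livers, and the ratio is lowest there, at 1.98 and 1.99.

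The second comparison asked what loss of hepatocyte NAMPT does during a fast. It shares its WT Fasting livers with the first comparison. Between NAMPT LKO and WT Fasting livers the edgeR fit called 0 members. Over all genes 0.00744% were called, which is Nampt alone. At an unadjusted p under 0.05 there were 3 members, 2 lower (Mrps34 and Mrpl2) and 1 higher (Mrpl45), beside 3.31% of all genes lower, 2.72% higher and 6.03% in either direction. DESeq2, limma's voomWithQualityWeights and edgeR's exact test likewise called 0 members, while over all 13444 genes they called 24, 1 and 24. The median log2 fold change was -0.043, against 0.00025 over all genes, and 43 of 76 members were below 0, beside 49.9% of all genes. The 95% interval of the difference lay within 0.5 on either side of 0 for 60 members, and within 0.25 for only 3. These intervals are for single genes and are not adjusted for the number of genes tested. A call required more, and the largest difference among the members, -0.52, was not called. The 0 calls therefore set no limit on differences of that size or smaller.

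For each of the 7 genes called in the first comparison, the 95% interval of the difference between genotypes included 0. For Mrps27 it was -0.13 (95% interval -0.36 to 0.09), for Mrps2 0.02 (-0.19 to 0.22), for Mrpl19 0.13 (-0.12 to 0.38), for Mrpl22 0.14 (-0.08 to 0.37), for Mrps18b 0.02 (-0.26 to 0.29), for Mrps6 -0.16 (-0.52 to 0.20) and for Mrps12 0.05 (-0.40 to 0.49). For Mrpl12, the partner of the mitochondrial RNA polymerase, it was -0.09 (-0.29 to 0.11).

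The largest differences belonged to Mrps34, Mrps11 and Mrpl9 below 0 and Mrpl45, Mrpl42 and Mrpl46 above it. Mrps34 measured 13.2, 16.2 and 19.3 CPM in WT Fasting livers and 12.5, 10.4, 12.0, 14.8 and 6.68 CPM in NAMPT LKO livers. The groups overlapped, and mouse 5 was the lowest. Its log2 fold change was -0.52 (SE 0.22, unadjusted p = 0.0347, adjusted p = 0.827). Without NAMPT LKO mouse 5 it was -0.39, and without that liver and WT Fasting mouse 3 together -0.23. Of the 2064 exonic bases of Mrps34, 1605 are also exon of Mapk8ip3 or Nme3, and Mapk8ip3 had a log2 fold change of -0.32 (adjusted p = 0.798).

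Mrps11, the relative of a bacterial platform protein, was 8.48, 8.15 and 9.43 CPM in WT Fasting livers and 7.85, 7.53, 6.35, 7.82 and 4.38 CPM in NAMPT LKO livers (log2 fold change -0.36, adjusted p = 0.837). All 5 NAMPT LKO livers were lower, and without mouse 5 the value was -0.24. Mrpl9 had a log2 fold change of -0.25 (adjusted p = 0.837). Mrpl45, which anchors the ribosome to the inner membrane, was 22.5, 16.7 and 14.6 CPM in WT Fasting livers and 21.9, 21.2, 21.1, 23.4 and 24.2 CPM in NAMPT LKO livers (0.32, adjusted p = 0.827). Its value was 0.52 without WT Fasting mouse 1 and 0.19 without WT Fasting mouse 3. For Mrpl42 the 5 NAMPT LKO livers gave 39.5, 37.8, 35.6, 39.1 and 60.6 CPM, of which mouse 5 was far above the rest, against 34.6, 35.5 and 36.6 CPM in WT Fasting livers. Its log2 fold change of 0.26 (adjusted p = 0.839) was 0.095 without mouse 5. Mrpl46, whose gene starts beside Mrps11 and shares 173 exonic bases with it on the opposite strand, had a log2 fold change of 0.24 (adjusted p = 0.837), and 0.15 without WT Fasting mouse 3. The 2 genotypes did not overlap for 3 members, all lower in NAMPT LKO livers (Mrpl2, Mrpl17 and Mrps11), beside 2.12% of all genes lower, 1.87% higher and 3.99% either way.

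The NAMPT LKO mouse 5 library differed from the other 4 of its group in a way that followed base composition. The Spearman correlation between the GC content of a member's exons and its difference from the mean of mice 1 to 4 was -0.53 over 76 genes, and -0.62 over 12042 protein-coding genes, as a description of genes that share these libraries. Members of lower GC content were higher in this liver and members of higher GC content were lower. Across the 76 members the log2 fold change of NAMPT LKO vs. WT Fasting livers had a Spearman correlation with GC content of -0.37. The part of GC content in the results was not tested beyond a fit with each library's trend removed, which also called 0 members in this comparison. In that fit the values were -0.40 for Mrps34, -0.29 for Mrps11 and 0.16 for Mrpl42.

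**Figure D5:**
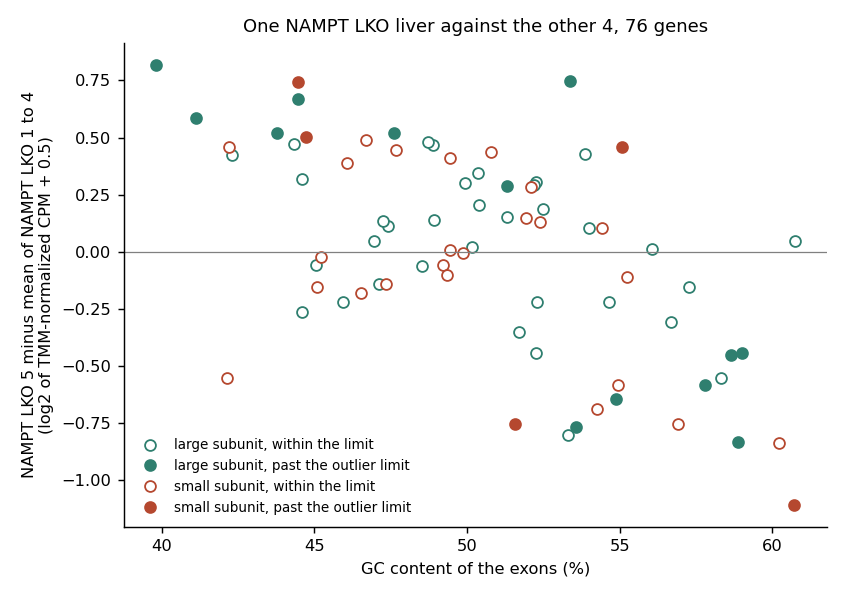
Difference between NAMPT LKO mouse 5 and the mean of NAMPT LKO mice 1 to 4 (vertical axis, log2 of TMM-normalized CPM plus 0.5) against GC content of the exons (horizontal axis, percent) for the 76 members, green for the large and red for the small subunit. Filled points are the 18 genes in which mouse 5 passed the outlier limit of its group, 10 of them above 0 and 8 below, and the points fall from left to right (Spearman correlation -0.53).

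The comparison of NAMPT LKO Fasting with WT Refed livers differs in both genotype and feeding, and shares its refed livers with the first comparison. It called 11 members, all lower, beside 6.58% of all genes called lower and 4.65% higher. These were 6 of 29 small-subunit genes and 5 of 47 large-subunit genes. The median log2 fold change was -0.22, against 0.032 over all genes, and 71 of 76 members were below 0. All 5 NAMPT LKO livers lay below both refed livers for 33 members, beside 17.8% of all genes, and above both for 0, beside 15.7%. In this comparison 1 endothelial, 1 stellate and 1 cholangiocyte marker were called higher and 1 pancreas marker lower, and the summed level of the 4 cholangiocyte markers was 13.6 to 15.5 CPM in NAMPT LKO livers and lower in both WT Refed livers. Their part in the result was not tested. The log2 fold changes were -1.08 for Mrps27 (adjusted p = 0.000377), -0.82 for Mrpl19 (adjusted p = 0.00263), -0.59 for Mrps2 (adjusted p = 0.00526), -0.97 for Mrps6 (adjusted p = 0.00701), -0.63 for Mrps18b (adjusted p = 0.0164), -0.88 for Mrps12 (adjusted p = 0.0301) and -0.39 for Mrpl22 (adjusted p = 0.0482).

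Mrpl16, the relative of a bacterial protein that helps to position transfer RNA, was also called here. It was 32.2 and 34.1 CPM in refed livers, 25.8, 26.8 and 24.0 CPM in WT Fasting livers and 22.5, 23.1, 24.1, 24.1 and 22.5 CPM in NAMPT LKO livers. Its log2 fold change was -0.51 (SE 0.09, adjusted p = 0.00673) in NAMPT LKO and -0.38 (adjusted p = 0.0547) in WT Fasting vs. WT Refed livers. Mrps7, a small-subunit protein with a bacterial relative, had values of -0.43 (adjusted p = 0.02) and -0.33 (adjusted p = 0.0983). For Mrpl50 they were -0.51 (adjusted p = 0.0373) and -0.55 (adjusted p = 0.0541), and for Mrpl55 -0.42 (adjusted p = 0.0405) and -0.23 (adjusted p = 0.33). Both of these are large-subunit proteins found only in mitochondria. A difference between the comparisons is the NAMPT LKO vs. WT Fasting value itself, which was -0.14 for Mrpl16, -0.10 for Mrps7, 0.04 for Mrpl50 and -0.20 for Mrpl55, with 0 of these called. The number called was 2 without WT Refed mouse 1, 1 without WT Refed mouse 2, and 24 without NAMPT LKO mouse 5. Over all genes the number called was 1510 with all libraries and 347, 227 and 2835 in these fits. Across the fits that left out 1 library, Mrps27 was called in 10 of 10, Mrpl16 and Mrps7 in 8, Mrpl50 and Mrpl55 in 3 and Mrpl22 in 1. The largest values above 0 were those of Mrps18c (0.15), Mrps9 (0.12) and Mrpl48 (0.05, but -0.046 with library size alone), and 0 of them were called.

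The genes that build and serve the mitochondrial ribosome were examined with lists written by function. Of 27 assembly factors and ribosomal RNA modifiers, 3 were called lower and 0 higher in WT Fasting vs. WT Refed livers, beside 4.36% of all genes called lower. There were 20 below 0, beside 46.4% of all genes, with a median of -0.22. They were Tfb1m (-0.80, SE 0.19, adjusted p = 0.0272), which methylates the small-subunit ribosomal RNA, Mrm3 (-0.78, SE 0.18, adjusted p = 0.0278), which methylates the large-subunit ribosomal RNA, and Noa1 (-0.59, SE 0.15, adjusted p = 0.0414), a GTPase of ribosome assembly. In NAMPT LKO Fasting vs. WT Refed livers 6 of the 27 were called lower, beside 6.58% of all genes, and 0 higher. These were Mrm2 (-0.94), Mrm3 (-0.91), Tfb1m (-0.71), Eral1 (-0.68), Dhx30 (-0.63) and Noa1 (-0.61), with adjusted p between 0.006 and 0.0248. Eral1 is a chaperone of the small-subunit ribosomal RNA and Dhx30 an RNA helicase. Of the 18 translation factors tested, 0 were called in WT Fasting vs. WT Refed livers, although 14 were below 0 (median -0.26). In NAMPT LKO Fasting vs. WT Refed livers 3 of the 18 were called lower, beside the same 6.58%, and 0 higher. These were Tsfm (-0.63, adjusted p = 0.0487) and Tufm (-0.34, adjusted p = 0.045), elongation factors that work as a pair, and Taco1 (-0.43, adjusted p = 0.0361), an activator of cytochrome oxidase translation. Without each library in turn, Tfb1m kept its call in WT Fasting vs. WT Refed livers in 5 of 10 fits, Mrm3 in 6 and Noa1 in 1, and in NAMPT LKO vs. WT Refed livers Tufm and Taco1 kept theirs in 3 and Tsfm in 2. Of the 11 alternative settings, Tufm kept its call in 5, Tsfm in 7 and Taco1 in 8, and Noa1 kept its call in WT Fasting vs. WT Refed livers in 8. NAMPT LKO vs. WT Fasting livers gave 0 calls in each of these lists.

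Regulators of mitochondrial genes were examined last. Of 16 genes of mitochondrial transcription and its regulators, 0 were called in WT Fasting vs. WT Refed livers, with a median of 0.03. The coactivator Ppargc1a had a log2 fold change of 1.13 (SE 0.43, adjusted p = 0.149) in WT Fasting and 1.76 (SE 0.42, adjusted p = 0.0236) in NAMPT LKO vs. WT Refed livers, where it was called higher. That call was lost without either of the WT Refed livers and kept in the other 8 of 10 fits. In WT Fasting vs. WT Refed livers Nrf1 was at 0.01 (adjusted p = 0.971), Gabpa at 0.13 (adjusted p = 0.653), Yy1 at 0.17 (adjusted p = 0.549), Esrra at -0.18 (adjusted p = 0.797), Ppargc1b at 0.18 (adjusted p = 0.679), Pprc1 at -0.49 (adjusted p = 0.245) and Myc at -0.62 (adjusted p = 0.263). Twnk, the mitochondrial DNA helicase, starts 116 bases from Mrpl43 on the opposite strand and had a log2 fold change of -0.54 (adjusted p = 0.0715).

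The members were also grouped by promoter. The median log2 fold change in WT Fasting vs. WT Refed livers was -0.18 over the 44 tested members with at least 1 of the 3 motifs and -0.23 over the 23 with none, with 4 and 2 called. It was -0.07 over the 13 with the NRF1 motif (0 called), -0.23 over the 23 with the ETS motif (4 called) and -0.26 over the 21 with the YY1 motif (2 called). All these calls were lower, beside 4.36% of all genes tested that were called lower and 7.04% in either direction. Mrpl19, which was also called, had no promoter window. The 16 members with a tested protein-coding neighbor that starts on the opposite strand in the 1000 bases before them had a median of -0.17 (3 called). The other 60 had a median of -0.20. These are descriptions over members that share the same libraries, with no test of a difference. Among the 16 neighbors Ptcd2 was the only one called in WT Fasting vs. WT Refed livers.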

How the data were processed

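The data were liver libraries, 2 of WT Refed, 3 of WT Fasting and 5 of NAMPT LKO mice. According to the study's methods and the submitters' processing notes, the authors sequenced oligo-dT selected RNA as single reads, aligned them to GRCm38 with STAR (2.5.1a in the notes), and made counts of uniquely aligned reads with featureCounts (1.4.6-p5). The methods give other versions of both tools. The deposited counts were used as they are. The deposited CPM and the deposited RPKM values were checked to be those counts scaled to the library total and then to exon length, with no further normalization. Among counts of 1 to 9, 66.4% to 70.7% were even in each library, although single reads are described. The cause was not tested, and halved counts were tried as an alternative.

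Symbols came from a later GENCODE annotation of GRCm38 than the authors' and matched 40340 of 41388 genes. After removal of rRNA genes, those above 1 CPM in 1 or more libraries were TMM-normalized and fitted with edgeR 4.0.16 (quasi-likelihood test, all 10 libraries, R 4.3.3), with Benjamini-Hochberg adjustment over 13444 genes. Alternatives were DESeq2 1.42.0, voomWithQualityWeights of limma 3.58.1, edgeR's exact test, other scalings and filters, GC trend removal (loess span 0.5), fits of only the 2 groups in question, fits with a replicate block, and fits without each library in turn. Halved counts and the omission of WT Fasting mouse 3 with NAMPT LKO mouse 5 were chosen after seeing the data. The members and the gene lists were chosen with earlier results of these data known. Pairs of libraries in a group all differed beyond counting noise. Totals of 30603080 to 43434139 counts per library set the precision, and intervals at 0 counts cover counting error only.

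Members were named where called (the 8 of lowest adjusted p if more were called), where they had the 3 largest differences in either direction at a mean of at least 5 CPM, where they were among the 4 highest or 4 lowest in RPKM, where a separate role or disease link is known, where they overlap another gene (as examples), or where a library stood apart. Nampt, mitoribosomal proteins with other symbols, 8 regulators and called genes of the lists were also named. Mrpl17, Mrpl24, Mrpl50, Mrpl55, the value of Mrpl22 in NAMPT LKO vs. WT Refed livers, and the neighbors Ptcd2, Sars2 and Twnk were chosen after their values were seen.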

Additional observations from a re-analysis of the deposited data

Results flagged for a closer look

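In the group of 5 NAMPT LKO livers, the gap between the farthest library and its nearest neighbor was divided by the range of the group for each of the 76 members and 5 summaries over them, 81 values in all. The gap was above Dixon's limit of 0.71 in 19 of them, against 4.05 that chance gives at 1 in 20, and NAMPT LKO mouse 5 was the library that stood apart in 19 of 19. It lay farthest from the group's median in 50 of 76 members.

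Mouse 5 was past the limit as the highest in 10 members, whose exons had a median GC content of 44.6% (39.8% to 55.1%). Its values were 60.6 CPM for Mrpl42, 64.5 CPM for Mrpl51, 49.5 CPM for Mrpl18, 42.8 CPM for Mrps31, 39.0 CPM for Mrps15, 34.8 CPM for Mrpl13, 32.6 CPM for Mrpl32, 32.2 CPM for Mrpl1, 21.0 CPM for Mrps18c and 20.4 CPM for Mrpl21. For Mrpl32 the other 4 livers were between 16.0 and 20.7 CPM. It was past the limit as the lowest in 8 members, with a median GC content of 58.2% (51.6% to 60.7%). These were Mrpl38 at 50.5 CPM, Mrpl43 at 28.7 CPM, Mrps24 at 28.7 CPM, Mrpl14 at 23.3 CPM, Mrpl4 at 19.9 CPM, Mrpl28 at 17.7 CPM, Mrps26 at 17.4 CPM and Mrpl36 at 9.31 CPM. For Mrps24 the other 4 livers were between 56.7 and 67.0 CPM. The members' share of all counts was 0.179% in mouse 5, against 0.203% to 0.213% in the other 4, and 21.1% of its counts were on the mitochondrial genome. The part of that share and of GC content in these values was not tested. None of these 18 genes was called in NAMPT LKO vs. WT Fasting livers with or without mouse 5.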

How the results depend on the processing

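In WT Fasting vs. WT Refed livers the 7 members called became 13 with DESeq2, 25 with voomWithQualityWeights, 17 with only the groups compared, 19 without WT Fasting mouse 3 and NAMPT LKO mouse 5, and 1 to 22 when each library was left out. Over all genes the 946 called became 1646, 3331, 1649, 2293 and 107 to 2231. The members called numbered 6 to 10 with edgeR's exact test, RLE factors, library size alone, filterByExpr, no filter, the GC trend removed and halved counts. Over all genes these settings called from 881 (filterByExpr) to 1511 (GC trend removed). In NAMPT LKO Fasting vs. WT Refed livers the 11 became 34 with voomWithQualityWeights, 17 with the GC trend removed, 28 without those 2 livers, and 1 to 24 when each library was left out, while the 1510 over all genes became 4281, 2126, 3329 and 227 to 2835. All calls were lower, and the cause of these changes was not tested. With library size alone the median log2 fold changes were -0.25 and -0.31 in these comparisons. In NAMPT LKO vs. WT Fasting livers no alternative called a member, and the median ranged from -0.061 to 0.0032 across the fits that left out 1 library, above 0 only without WT Fasting mouse 2. Mrpl48 in NAMPT LKO Fasting vs. WT Refed livers (0.047) was -0.046 with library size alone and ranged from -0.078 without WT Refed mouse 2 to 0.1611 without WT Refed mouse 1. Same-numbered WT Fasting and NAMPT LKO libraries are different mice. Their deviations had correlations of 0.0764, 0.162 and 0.0968 and each library correlated best with its own number, a hint from the data and not the design. With the replicate block over libraries 1 to 3 the median was -0.056, without it -0.059 and with the GC trend also removed -0.050. These 3 fits called 0 of 13231 genes, Nampt included, so their 0 calls say nothing of the members. No paired analysis was possible for the comparisons with WT Refed livers because their labels carry no numbers.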

Other observations

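The 5 pseudogenes that carry names of mitoribosomal proteins were counted little. The highest value in any library was 2.33 CPM for Mrpl23-ps1, 1.10 CPM for Mrpl48-ps, 0.617 CPM for Mrps36-ps1 and 0.379 CPM for Mrps36-ps2, and Mrps36-ps3 had 0 counts. Syvn1, an enzyme of endoplasmic reticulum protein degradation whose exons share 83 bases with Mrpl49 on the opposite strand, averaged 539 CPM in WT Refed and 91.6 CPM in WT Fasting livers, while Mrpl49 had a log2 fold change of -0.16 (edgeR adjusted p = 0.529). Nr2c2, which lies opposite Mrps25, was higher in WT Fasting than in WT Refed livers by a log2 fold change of 1.08 (edgeR adjusted p = 0.0102), and Mrps25 had one of -0.37 (adjusted p = 0.278 in the same test). The median coefficient of variation of the members was 7.66% over the 3 WT Fasting livers and 13.8% over the 5 NAMPT LKO livers, a group that includes mouse 5.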
